A study of Homo sapiens with 8 samples.

Results

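The regions described here lie on chromosome 4 and were listed at overlapping positions in an eIF4G2 RIP-seq experiment on fibroblasts with and without an eIF4G2 vector. In RIP-seq, RNA that comes down with an antibody is sequenced. The cells were IHCF, fibroblasts of the human heart kept as an immortalized line. They carried either a lentiviral vector for eIF4G2 or a scramble control vector, and in both conditions the antibody was against eIF4G2. Each condition had 2 biological replicates of bound RNA and 2 of total RNA, 8 libraries in all. The authors deposited 1 list of bound regions per condition, named here the overexpression list and the control list. The lists hold positions on GRCh38 and the Ensembl transcripts under or near each region, with no read count, score or value per replicate. Depth is therefore unknown, and replicates cannot be used to judge how the lists differ. The assignment of each list to its condition rests on the table's name, which also holds the name MOV10, another RNA-binding protein that no sample label mentions. Fibroblast markers could not be checked in lists of positions.

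Members were chosen by position from the lists themselves. A region qualified if it lay inside or over at least 1 transcript and if all transcripts it touched were on the same strand. It was a member, or a recurring region, if it shared at least 1 bp with any chromosome 4 region of the other list. Of the 390 qualifying overexpression regions of chromosome 4, 251 recurred (64.4%), and of the 914 qualifying control regions, 228 recurred (24.9%). Over all chromosomes, 16.8% of the 1986 overexpression regions and 25.7% of the 1224 control regions overlapped a region of the other list. The members are thus 479 of the 3210 regions in both lists. For 16 overexpression and 5 control members the only partners were regions that did not qualify themselves. These shares follow from the rule, from the lengths of the lists and from the chromosomes they cover, so they are a description and carry no test. Of the 1224 control regions 1185 lay on chromosome 4, and of the 1986 overexpression regions 491. An overexpression region of another chromosome thus had few control regions to meet, which bears on the 16.8%.

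eIF4G2, also called DAP5, is a relative of the scaffold protein eIF4G1. It binds eIF3 and the helicase eIF4A but lacks the site through which eIF4G1 holds the cap-binding protein eIF4E, and it is known for translation that does not depend on eIF4E. Activated cardiac fibroblasts divide, contract and secrete matrix. A region in a RIP-seq list marks RNA that a caller placed above its threshold, and it may be exon or intron. The lists do not say which.

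Before a RefSeq start, 3 windows had bases inside recurring regions of both lists. They are shown because each lies before an annotated start, while most recurring regions lay toward the 3′ side. The UBE2D3 start is internal to the gene as listed. The recurring overexpression region over that window lay 41.3 to 42.5 kb from the 5′ end of a gene of 74.5 kb. Each sequence is the 250 bases before the start on GRCh38.p14, 5′ to 3′ on the strand of the gene, and capitals mark the bases inside recurring regions of both lists.
UBE2D3 (chr4:102826859-102827108, minus strand): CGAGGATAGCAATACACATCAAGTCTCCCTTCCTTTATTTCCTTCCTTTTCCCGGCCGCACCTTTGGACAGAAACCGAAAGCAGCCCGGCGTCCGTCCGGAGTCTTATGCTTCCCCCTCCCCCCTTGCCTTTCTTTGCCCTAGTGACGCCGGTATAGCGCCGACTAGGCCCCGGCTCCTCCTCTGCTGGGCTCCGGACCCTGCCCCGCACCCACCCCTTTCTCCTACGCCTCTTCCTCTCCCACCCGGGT
ELOVL6 (chr4:110198616-110198865, minus strand): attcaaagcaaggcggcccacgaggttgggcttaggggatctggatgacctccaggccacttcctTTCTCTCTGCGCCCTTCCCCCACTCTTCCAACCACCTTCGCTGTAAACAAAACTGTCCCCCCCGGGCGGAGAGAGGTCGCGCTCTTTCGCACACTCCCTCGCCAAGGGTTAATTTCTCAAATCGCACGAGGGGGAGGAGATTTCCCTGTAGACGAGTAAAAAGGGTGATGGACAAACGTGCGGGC
NOP14-AS1 (chr4:2935296-2935545, plus strand): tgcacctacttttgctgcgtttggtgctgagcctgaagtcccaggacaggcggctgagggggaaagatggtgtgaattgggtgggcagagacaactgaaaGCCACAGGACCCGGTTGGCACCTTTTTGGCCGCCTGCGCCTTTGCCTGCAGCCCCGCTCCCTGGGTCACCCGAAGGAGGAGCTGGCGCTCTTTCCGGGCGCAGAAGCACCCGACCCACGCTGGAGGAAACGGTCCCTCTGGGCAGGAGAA

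For UBE2D3, a ubiquitin-conjugating enzyme gene, all 250 bases were inside regions of both lists. For ELOVL6, a fatty acid elongase gene, 185 of the 250 bases were, and for the antisense transcript NOP14-AS1 150 were. The UBE2D3 window held 17 CG dinucleotides, the ELOVL6 window 15 and the NOP14-AS1 window 13. The median over the 1677 such windows of chromosome 4 was 7. UBE2D3 has a further RefSeq start, and the window before that one had no base in regions of both lists. None of the 49 RefSeq microRNA hairpins of chromosome 4 lay under a recurring region of either list.

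Most recurring regions were covered over the larger part of their width. A recurring overexpression region was covered by control regions over a median of 91.9% of its width (95% interval of the median 85.4 to 98.4, n = 251). A recurring control region was covered over a median of 75% (70.1 to 82.5, n = 228). Among overexpression regions 106 of 251 were wholly covered (42.2%, Wilson 95% interval 36.3 to 48.4), and among control regions 58 of 228 (25.4%, 20.2 to 31.5). Only 8 overexpression regions and 16 control regions were covered over less than 25% of their width. All intervals cover counting error only and treat each region as independent, although many lie in the same gene. In length, 186.2 of the 228.9 kb of recurring overexpression regions and 178.3 of the 288.9 kb of recurring control regions lay in the other list.

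Most recurring regions had a single counterpart. Of the overexpression regions 215 had 1 partner, 35 had 2 and 1 had 3. Of the control regions 185 had 1 partner, 40 had 2, 2 had 3 and 1 had 4. In 269 pairs both regions passed the gene and strand filter. The overexpression region lay inside the control region in 97 of these pairs (36.1%), and the control region inside the overexpression region in 56 (20.8%). The overexpression region was shifted toward the 3′ side in 61 pairs and toward the 5′ side in 54. In 1 pair, in ANKRD17, both ends were the same. Read per pair the agreement was looser: the shared stretch had a median of 585 bp (50 to 2735), a median of 38.4% of the stretch that both regions spanned, and reached 50% in 104 pairs.

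The control region was the wider one in 163 of the 269 pairs and the overexpression region in 100, with 6 equal. Median widths in these pairs were 1200 bp for control and 825 bp for overexpression. In the 118 pairs with 1 partner on each side the median ratio of overexpression to control width was 0.858, with control wider in 68 and overexpression in 46. The edges differed by a median of 290 bp at the 5′ side and 360 bp at the 3′ side, irrespective of direction. In 121 pairs the 5′ edges were within 215 bp of each other, and in 118 pairs the 3′ edges were.

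**Figure D1:**
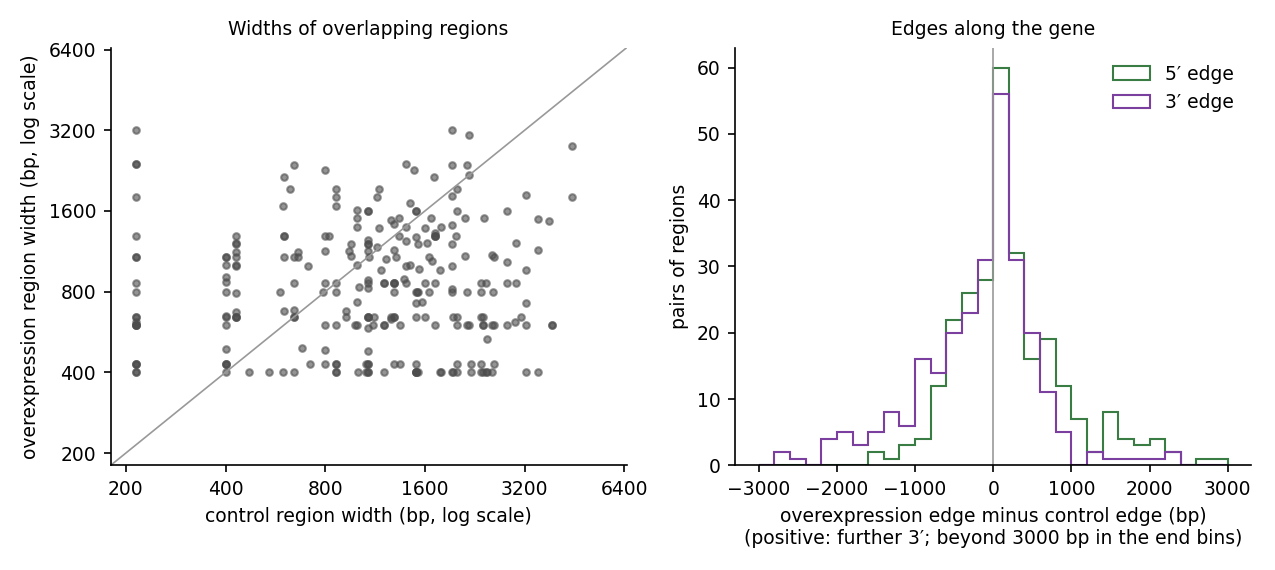
Widths and edges of the 269 pairs of overlapping regions that pass the gene and strand filter. Left, each point is a pair, with control width against overexpression width in bp on log axes and a line of equal width; 163 points lie on the control side of the line and 100 on the other. Right, the number of pairs by the distance in bp from the control edge to the overexpression edge along the gene, with the 5′ edge in green and the 3′ edge in purple; both peak near 0, with medians of 25 and -40 bp.

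These distances have to be read against the resolution of the lists. Every start and end on chromosome 4 fell on a grid of 200 bp or of 215 bp, in all 491 overexpression and all 1185 control regions. Both lists held regions with both boundaries on the 200 bp grid, with both on the 215 bp grid, and with 1 boundary on each. In the overexpression list these 3 kinds recurred in 65.2% of 135, 64.9% of 131 and 62.9% of 124 regions. In the control list the shares were 19.4% of 237, 25.3% of 423 and 29.5% of 254. How the grids arose was not analysed here.

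The narrowest regions differed between the lists. The narrowest qualifying overexpression region was 400 bp wide, while 207 qualifying control regions were up to 215 bp wide, which is 1 step of a grid. Of these 207, 22 recurred (10.6%, 7.12 to 15.6). With regions of at least 400 bp alone, 206 of 706 control regions recurred (29.2%, 25.9 to 32.6).

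Recurring regions were wider than those in 1 list only. In the overexpression list the median was 800 bp (95% interval 680 to 860, n = 251) for recurring regions and 645 bp (540 to 760, n = 139) for the others. In the control list it was 1075 bp (1015 to 1290, n = 228) against 477.5 bp (430 to 600, n = 686). A wider region has more positions at which to meet another, so width is tied to the rule and was not tested. In the control list 48 of 376 regions up to 430 bp recurred (12.8%), 39 of 209 between 431 and 860 bp (18.7%) and 141 of 329 above 860 bp (42.9%). In the overexpression list the shares were 51.4% of 105, 66.2% of 145 and 72.1% of 140.

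The recurring regions leaned toward the 3′ ends of genes. The middle of a recurring region lay at a median of 77.4% of the way along its gene in the overexpression list (95% interval 72.0 to 83.9) and at 79.7% in the control list (73.5 to 86.4). Regions in 1 list only lay at 67.8% (59.0 to 76.9) and 69.0% (64.1 to 73.9). The last 10% of the gene held 94 of 251 recurring overexpression regions (37.5%, 31.7 to 43.6) and 41 of 139 others (29.5%, 22.5 to 37.5). In the control list it held 88 of 228 (38.6%, 32.5 to 45.1) and 209 of 686 (30.5%, 27.1 to 34.0). The first 10% held 7.46% of recurring control regions (4.71 to 11.6) and 13.3% of the others (10.9 to 16.0). In the overexpression list it held 8.76% (5.86 to 12.9) and 12.9% (8.35 to 19.5). Transcript 5′ ends, in contrast, lay under 15.4% of recurring control regions and 10.1% of the others. In the overexpression list these shares were 10.8% and 8.63%. In each of these comparisons the intervals overlap.

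By width, the median place of control regions above 860 bp was 82.8% for recurring regions (74.5 to 90.5, n = 141) and 84.5% for the others (75.4 to 91.2, n = 188). In the narrower classes recurring control regions lay further along, at 67.6% and 62.7% up to 430 bp and at 81.8% and 65.2% from 431 to 860 bp. In the overexpression list the gap was largest among wide regions. Up to 430 bp the medians of recurring and other regions were 69.5% and 71.2%, and from 431 to 860 bp 75.1% and 67.8%. Above 860 bp they were 86.2% (68.8 to 92.8, n = 101) and 61.5% (46.6 to 84.7, n = 39). The intervals of recurring and other regions overlapped in every width class of both lists.

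Transcript 3′ ends lay under 110 of 228 recurring control regions (48.2%, 41.8 to 54.7) and under 191 of 686 control regions in 1 list only (27.8%, 24.6 to 31.3). Within a width class the difference shrank. Above 860 bp the shares were 63.1% of 141 and 62.2% of 188. Between 431 and 860 bp they were 35.9% of 39 (22.7 to 51.6) and 22.4% of 170 (16.7 to 29.2), and up to 430 bp 14.6% of 48 and 11% of 328. In the overexpression list 36.3% of recurring regions (30.6 to 42.4) and 31.7% of the others (24.5 to 39.8) lay over a 3′ end, intervals that overlap. By width these shares were 22.2% of 54 and 17.6% of 51 up to 430 bp, and 28.1% of 96 and 26.5% of 49 from 431 to 860 bp. Above 860 bp the order turned, with 51.5% of 101 recurring regions and 56.4% of 39 others. Many of these ends belong to short transcripts: over the 3′ end of the longest transcript of a gene lay 21.5% of recurring control regions and 10.2% of the others. Above 860 bp these shares were 29.1% and 28.2%.

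**Figure D2:**
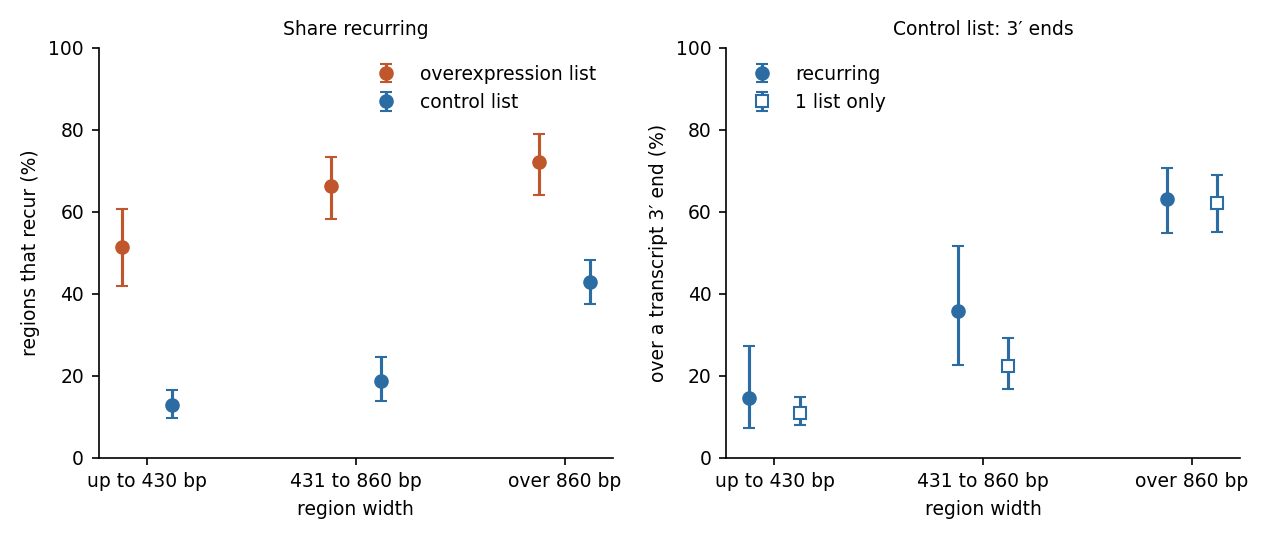
Recurrence and 3′ ends by region width (up to 430 bp, 431 to 860 bp, over 860 bp); points are shares of regions in percent and bars are Wilson 95% intervals. Left, the share of qualifying regions that recur rises with width in both lists, from 12.8% to 42.9% in the control list. Right, the share of control regions over a transcript 3′ end, with recurring regions filled and regions in 1 list only open; above 860 bp the shares are 63.1% and 62.2%.

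**Figure D3:**
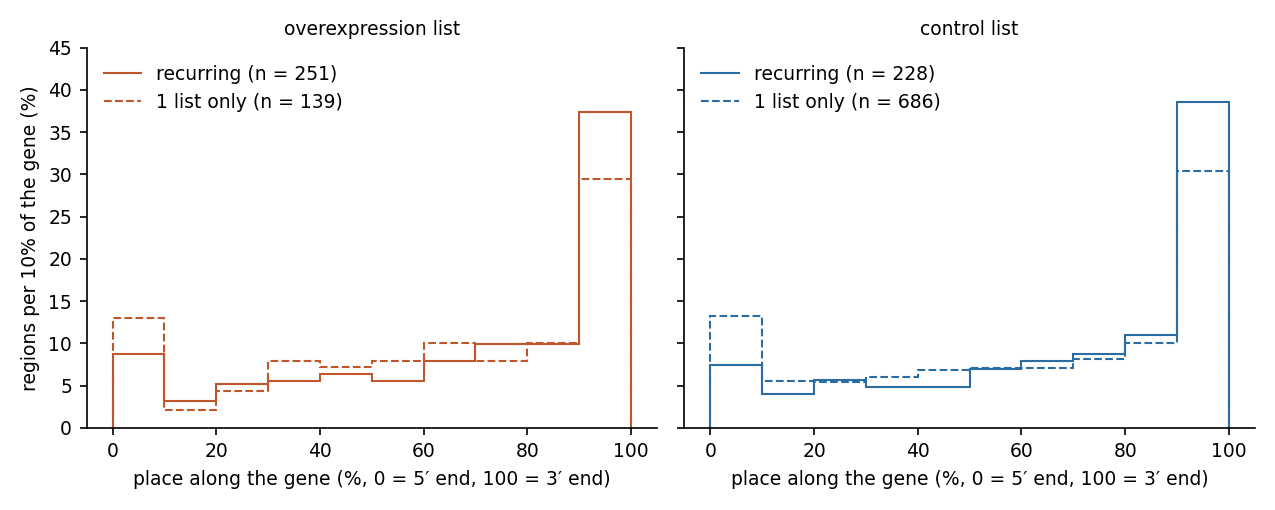
Place of the region's middle along its gene, from 0% at the 5′ end to 100% at the 3′ end, as the percentage of regions in each step of 10% of the gene. Solid lines are recurring regions and dashed lines are regions in 1 list only; the last 10% holds 37.5% and 29.5% in the overexpression list and 38.6% and 30.5% in the control list.

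At the level of genes, 376 genes lay under qualifying regions of either list, and 139 of them (37.0%) had a recurring region in both lists. A further 27 genes had qualifying regions in both lists without a recurring region in both. Of the 139 genes, 120 are protein-coding in RefSeq, 5 are long noncoding, 1 is a small nucleolar RNA and 13 are unnamed in the tables. In 56 of them each list had exactly 1 recurring region, and in 32 a list had 3 or more. In 29 genes every qualifying region of both lists recurred. Shared length, the number of bp that the recurring regions over a gene had in both lists (not cut at the ends of the gene), had a median of 1075 bp and ran from 155 to 6395 bp. Summed region width was greater in the control list for 98 of the 139 genes and in the overexpression list for 40. Over all qualifying regions of chromosome 4 the summed width was 777.2 kb in the control list and 334.0 kb in the overexpression list. Coding genes with a recurring region in both lists spanned a median of 70.0 kb (quartiles 30.2 and 112.3 kb, n = 120). The other 186 coding genes under qualifying regions spanned 50.1 kb (22.3 and 129.8 kb).

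FGF5, a secreted fibroblast growth factor, had the longest shared length, 6395 bp. All 5 of its overexpression regions recurred, and they lay in a run from 80287201 to 80294975 on chromosome 4. Its 3 recurring control regions ran from 80286161 to 80294545, and the widest, of 4455 bp, was covered over 94.1% of its width. The other 4 control regions of FGF5 all lay downstream of this run, the last at 80303361 to 80304650, and had no counterpart.

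ANKRD17, which encodes an ankyrin repeat and KH domain protein, came next with 4160 bp. Its region at 73074631 to 73076800, over a transcript 3′ end, was 2170 bp wide in both lists and was the only pair with the same ends. Of its 8 overexpression regions 5 recurred, and of its 18 control regions 5. The control region at its 5′ end, 215 bp wide at 73258241 to 73258455, had no counterpart.

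CRMP1, a cytoskeletal regulator best known from neurons, had 5 overexpression regions, all recurring, and these met only 2 control regions, of 3520 and 2000 bp. Its other 3 control regions were 215 bp wide each and stood alone. Shared length in CRMP1 was 3655 bp. In FAM193A (3640 bp) the order was reversed: the 2400 bp overexpression region at 2719401 to 2721800 met 3 control regions, 2 of them 215 bp wide. In both genes a wide region of 1 list stood where the other had several.

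CCNI, cyclin I, shared 3030 bp. It had 11 control regions over a gene of 29.2 kb, of which 4 recurred, and 5 overexpression regions, of which 4 recurred. At its 3′ end a control region of 2580 bp was covered over 16.7%. UBE2K, a ubiquitin-conjugating enzyme gene (2940 bp), had its 3 recurring regions in each list within the last part of the gene, from 39777366 to 39783800. In UBE2D3, of the same enzyme family (2660 bp), the pair at the 3′ end overlapped little, over 14.3% of the overexpression region and 8.90% of the control region. Its pair at 102809561 had the same start coordinate in both lists, and its pair at 102826401 to 102827600 and 102826331 to 102827405 is the one over the sequence shown above.

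GRK4, a G protein-coupled receptor kinase gene, was one with recurring regions at the 5′ end. Its recurring regions lay from 2963601 to 2967600, in the first few kb of a gene of 77.2 kb, and shared 2685 bp. ELOVL6 had 3 regions in each list and all recurred, 1 of them at the 5′ end and 2 at the 3′ end of a gene of 153.4 kb, sharing 2635 bp. NSD2, a histone methyltransferase gene (2675 bp), had 14 control regions of which 4 recurred. POLR2B, a subunit of RNA polymerase II (2580 bp), had 3 recurring control and 4 recurring overexpression regions, from 57023201 to 57027890. SPATA5, called AFG2A in RefSeq, encodes an ATPase of ribosome maturation and shared 2555 bp in 2 regions per list at the 3′ end of a gene of 396.4 kb. These 12 genes hold the longest shared lengths of coding genes, which was the rule for naming them.

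**Figure D4:**
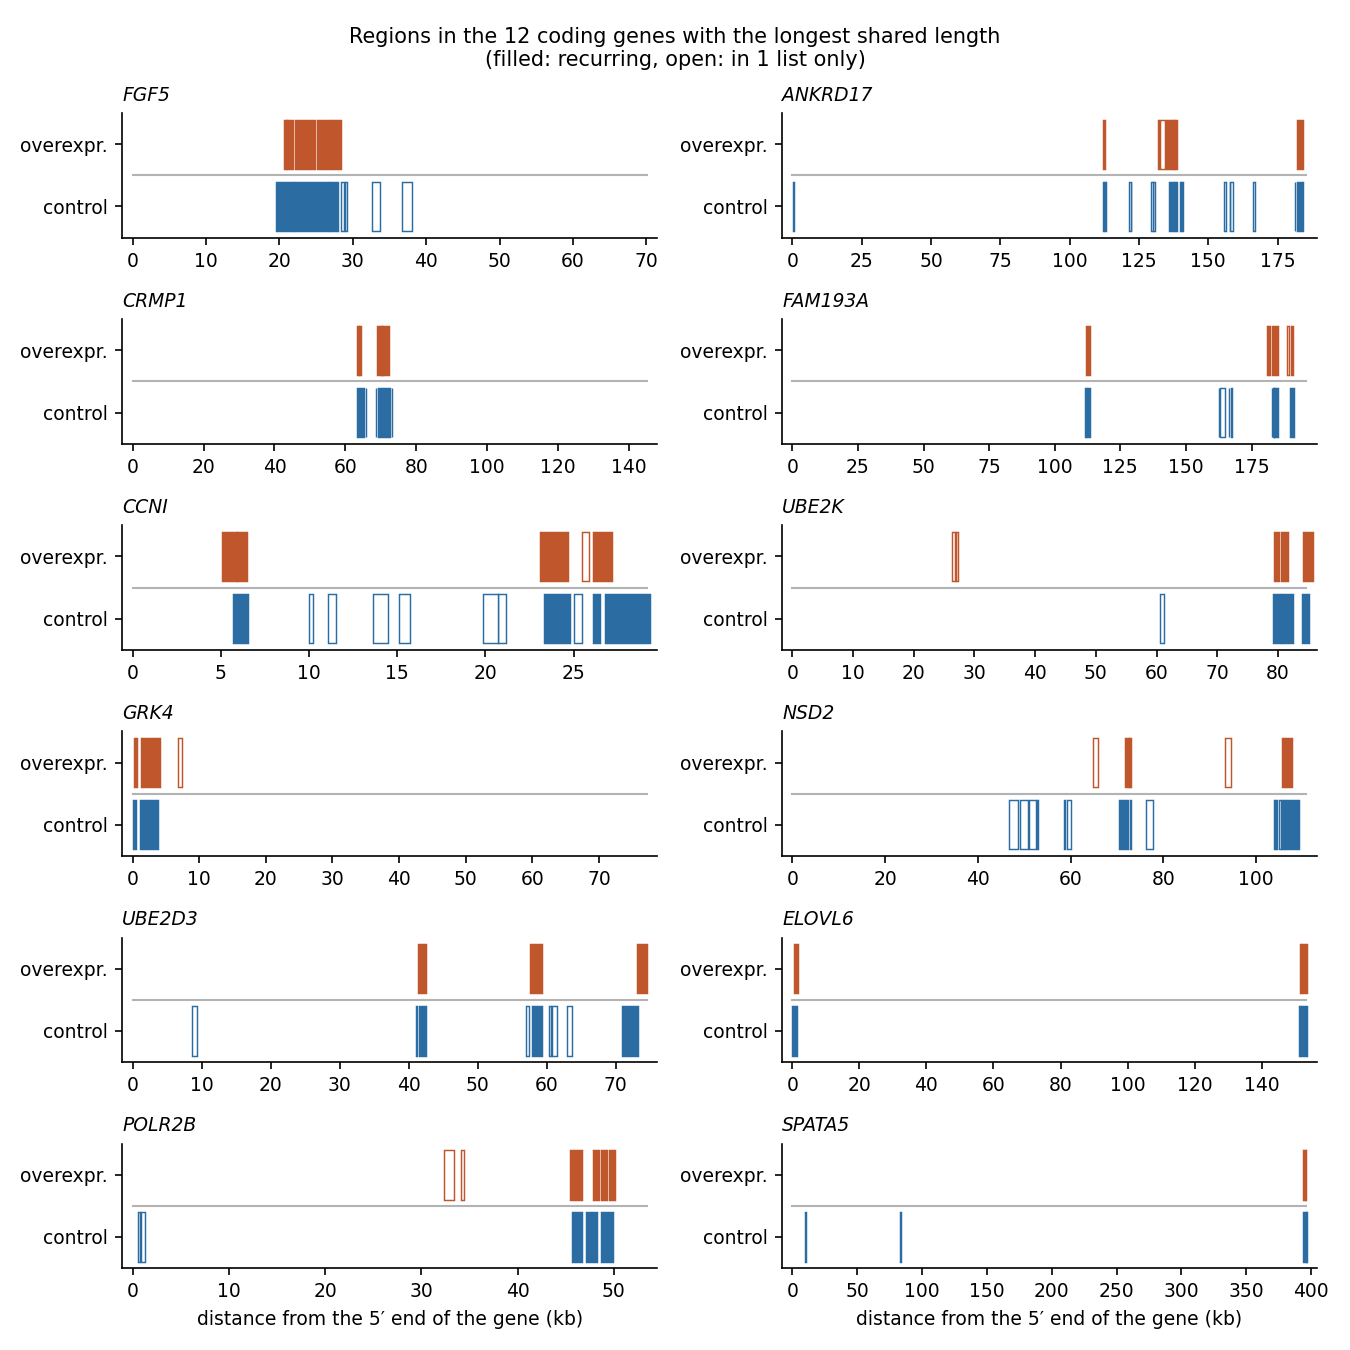
Qualifying regions in the 12 coding genes with the longest shared length, drawn to scale against the distance from the 5′ end of the gene in kb; the grey line is the gene as the tables give it. Overexpression regions are above the line and control regions below, with recurring regions filled and regions in 1 list only open. Narrow open regions look filled in long genes such as SPATA5. In FGF5 and GRK4 the filled regions form 1 block, and in ELOVL6 and UBE2D3 they lie at separate sites.

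Genes of chromosome 4 were grouped by role in 11 lists, written with earlier results of these data known. Among all coding genes under a qualifying region, 120 of 306 (39.2%) had a recurring region in both lists, with a median shared length of 1075 bp, and the counts below stand beside that share. Over all 376 genes under qualifying regions, coding or not, 336 had a control region, 206 an overexpression region and 166 both. Genes with control regions alone were thus common across chromosome 4, and the counts of such genes below stand beside these numbers. No list was tested.

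Signalling genes were few. Of 6 growth factor and cytokine genes with a qualifying region, FGF5 and SLIT2 recurred. SLIT2, a secreted guidance cue, had an overexpression region of 2280 bp at 20618801 to 20621080 at its 3′ end, which met control regions of 800 and 1480 bp and shared 1880 bp. FGF2 had 1 overexpression region alone, and PDGFC, CXCL3 and CXCL8 had control regions alone. Of the TGF-beta and BMP list, SMAD1, the transcription factor of BMP signals, had 1 region per list. That of 1935 bp in the overexpression list was covered over 55.6%, and that of 1160 bp in the control list over 92.7%. The 4 genes of the surface receptor and kinase list with a qualifying region had control regions alone. They were ANTXR2, FGFRL1, KIT and TSPAN5, the last a tetraspanin and neither a receptor nor a kinase.

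Of the 16 cytoskeletal and adhesion genes with a qualifying region, 5 recurred (31.2%) and 9 had control regions alone. SH3D19, an adaptor protein gene, had an overexpression region of 3200 bp that covered control regions of 1935 and 215 bp almost wholly, over 93.5% and 100%. SEPTIN11, a septin of the cytoskeleton, shared 1770 bp in 3 regions per list, yet its control region of 3010 bp was covered over 7.14%. PDLIM3, a PDZ and LIM domain protein of actin fibres, had regions of 1600 and 1995 bp that shared 1595 bp. ADD1, adducin 1 of the membrane skeleton, had regions of 1605 and 1500 bp that shared 1500 bp. WDR1, a factor of actin disassembly, shared 540 bp. Of these, ADD1 had the closest match between lists.

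Of the 19 cell cycle genes, 8 recurred (42.1%). Besides CCNI these included CCNA2, cyclin A2, with 1985 bp; its 2 overexpression regions were covered over 94.0% and 64.2%. TACC3, a protein of the mitotic spindle, shared 1965 bp, with a pair at its 5′ end that began at 1712801 in both lists. Its control region of 5805 bp, over its 3′ end, was the widest recurring region of all and was covered over 9.47%. CENPE, a kinetochore motor gene, shared 1570 bp at internal sites, where overexpression regions of 400, 680 and 600 bp were covered over 100%, 88.2% and 95%. INTU, FBXW7, CEP135 and CDKN2AIP shared 1270, 1230, 1130 and 615 bp.

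Of the 14 genes of the translation and ribosome list, 7 recurred and 7 had control regions alone. AIMP1, a scaffold of the tRNA synthetase complex, shared 1505 bp and LARP7, which binds the 7SK RNA, 1425 bp. LARP7 is counted in the RNA processing list as well, and binding 7SK is not a role in translation. No count of the translation list was made without LARP7. The ribosomal protein genes RPL34, RPL9 and RPS3A shared 1350, 600 and 430 bp, and MRPL1, of the mitochondrial ribosome, 600 bp. The genes with control regions alone included EIF4E, the cap-binding protein, with 1 region. In RPL34 the 3 overexpression regions were covered over 87.2%, 82.5% and 89.0%. NAF1, a factor of snoRNP assembly, had regions of 1475 and 1260 bp, the control one wholly inside the other, that had the same start coordinate.

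Of the 18 genes of the RNA processing list, 8 recurred (44.4%), or 8 of 17 without POLN, a DNA polymerase. Both counts include POLR2B, the RNA polymerase II subunit, among the 8, and no count was made without it. HNRNPD, a protein that binds AU-rich elements, had 4 overexpression regions, of which 3 were wholly covered by control regions of 3870 and 2150 bp, and shared 2215 bp. RBM47, CNOT6L, DDX60L and NELFA shared 1200, 875, 800 and 565 bp. Of the 26 genes of the transcription and chromatin list, 14 recurred (53.8%). The list holds PAPSS1, an enzyme of sulfate activation, and MAEA, of a ubiquitin ligase, which do not belong to this role; without them 13 of 24 recurred (54.2%). ELF2, an ETS factor, shared 2510 bp, and all 3 of its overexpression regions recurred against 5 of 7 control regions. The corepressor gene CTBP1 shared 2295 bp. SMARCAD1, a chromatin remodeller gene, had 3′ end regions of 1935 and 2000 bp, covered over 94.6% and 91.5%. MSX1, a homeobox gene, shared 1075 bp.

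The ubiquitin list had 12 of 20 (60.0%, 38.7 to 78.1), the highest share of the 11 lists, with an interval that includes the 39.2% of all coding genes. Without TBCK, which is not known for a role in that system, it had 12 of 19. Besides UBE2K and UBE2D3 the list included COPS4, a subunit of the COP9 signalosome. Its control region of 1260 bp was covered over 98.8% by 2 overexpression regions. FBXW7, a substrate receptor of ubiquitin ligases, shared 1230 bp, and FBXL5, USP46, HERC6 and USP38 shared 1000, 910, 830 and 820 bp. HERC3, RCHY1, MARCHF1 and TRIM61 shared between 400 and 430 bp. The secretory and chaperone list had 2 of 20 (10.0%) with 17 in the control list alone. Its 2 genes were CLCN3, a chloride and proton exchanger of endosomes (1000 bp), and TBC1D1, a Rab GTPase activating protein (935 bp). Of the 15 mitochondrial and metabolic genes 5 recurred (33.3%): ELOVL6, the purine synthesis gene PAICS (2000 bp), LETM1 (645 bp), ETFDH (520 bp) and UGDH (260 bp).

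**Figure D5:**
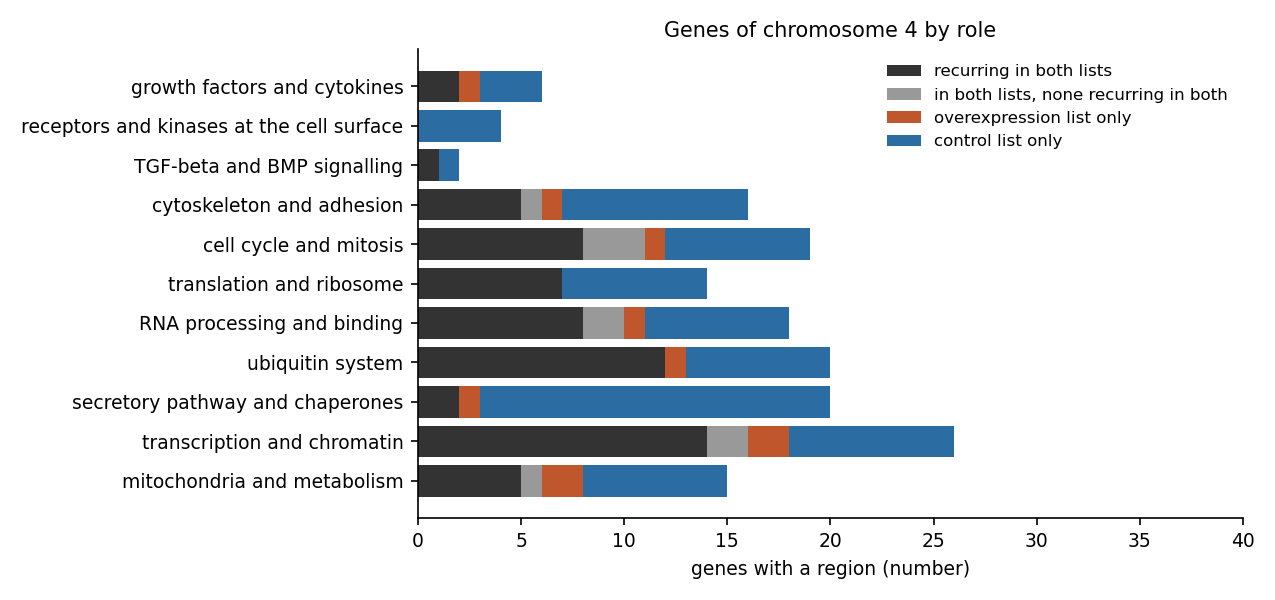
Number of genes of chromosome 4 with a qualifying region, by role, for the 11 lists. Black bars count genes with a recurring region in both lists, grey those in both lists without one, orange those in the overexpression list alone and blue those in the control list alone; ubiquitin genes have 12 of 20 in black and secretory genes 2 of 20.

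Of the noncoding genes named by RefSeq with a recurring region in both lists, IRF2-DT shared 1455 bp, CTBP1-DT 1200 bp, TAPT1-AS1 1000 bp, UGDH-AS1 860 bp and NOP14-AS1 645 bp. The small nucleolar RNA SNORD73B lies within RPS3A and under the same pair of regions, so the 430 bp given for RPS3A cannot be assigned to either gene. The lists give no strand for a region, so the source strand of these antisense and divergent transcripts cannot be told.

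At the edge of the rule, the smallest overlaps were 50 bp in USP46 and ELOVL6, 80 bp in IGFBP7-AS1 and 95 bp in C4orf46. In USP46, ELOVL6 and C4orf46 other recurring regions overlapped by more, so these genes recurred without them. In IGFBP7-AS1 the control partner did not qualify, so the gene is not among the 139. On the other side, 20 regions in 1 list only ended directly beside a region of the other list without sharing a base. They included 215 bp control regions in MYL5 at 677251 to 677465 and in FAM193A at 2648371 to 2648585. In the divergent transcript CTBP1-DT the overexpression region at 1250656 to 1251515 and the control region at 1251516 to 1251730 abutted.

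Regions in 1 list only lay a median of 3.01 kb from the nearest region of the other list for overexpression (95% interval 2.23 to 6.47) and 24.7 kb for control (18.7 to 33.0). Of the 139 such overexpression regions, 35 (25.2%, 18.7 to 33.0) had a control region within 1000 bp, and 107 (77.0%, 69.3 to 83.2) lay in a gene with a control region. Of the 686 such control regions, 87 (12.7%, 10.4 to 15.4) had an overexpression region within 1000 bp and 366 (53.4%, 49.6 to 57.1) lay in a gene with an overexpression region. These distances and shares depend on how many regions the other list holds on chromosome 4. The control list held 1185 there and the overexpression list 491, so the 2 directions cannot be compared directly. Along the chromosome the control share was lower at the far end. Up to 160 Mb, 215 of 814 control regions recurred (26.4%, 23.5 to 29.5), and beyond it 13 of 100 (13.0%, 7.76 to 21.0). The overexpression list had 369 qualifying regions up to 160 Mb, of which 239 recurred, and 21 beyond it, of which 12 recurred. The control share depends on how many overexpression regions lie in each part. The boundary at 160 Mb was chosen after the values in windows of 20 Mb were seen, and no test was made.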

How the data were processed

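RNA bound to eIF4G2 and total RNA were sequenced from IHCF cells, 2 biological replicates of each in 2 conditions. Per the submitters' processing notes the tools were bcl2fastq 2.19.0, Trimmomatic 0.36 and HISAT2 2.1.0 on GRCh38 (hg38). How regions were called, at which threshold, against which background and from which replicates is not given in the sources used here. Per the file headers, the deposited tables hold positions, widths and distances to Ensembl transcripts in bp, with no score, count or column per replicate, so no test was possible and depth is unknown.

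Here regions were counted once each, filtered and overlapped (at least 1 bp) in Python 3.11.15 with pandas 2.3.3, a step tested on simulated data. Shares have Wilson 95% intervals and medians order-statistic 95% intervals. Of 477 named genes on chromosome 4, 471 matched RefSeq (GRCh38.p14), sought by Ensembl gene identifier, then by symbol, then by a unique synonym. Named genes were the 12 coding genes with the longest shared length, up to 4 per role list, the 4 smallest overlaps and the 4 nearest misses; other list members are given by shared length, or without it where they did not recur, and noncoding genes were added after their values were seen. Members and lists were chosen with earlier results of these data known. Role lists without members of another known role, and places along the gene by width, were added after the values were seen.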

Additional observations from a re-analysis of the deposited data

How the results depend on the processing

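Of the alternative shares and medians, 86 stayed within the 95% interval of the reported value and 23 moved, 2 of these under the boundary grids, an alternative chosen after seeing the data. The count of 139 genes has no interval. It was 126 with regions over 1 gene and with named genes only, 137 with regions of at least 400 bp, and 197 with genes of both strands allowed. With an overlap of at least 50% of both regions, 29.2% of overexpression and 12.4% of control regions recurred, in 90 genes, and recurring overexpression regions had a median width of 1065 bp and lay over a 3′ end in 44.7%. With regions of at least 400 bp, 29.2% of control regions recurred, and those in 1 list only had a median width of 670 bp and a 3′ end share of 35.2%. On the longest transcript alone the 3′ end shares of recurring and other regions were 12.4% and 7.91% (overexpression) and 21.5% and 10.2% (control). With the widest region of each gene they were 48.1% and 47.0%, and 66.9% and 54.8%. In that setting the median place of recurring regions was 84.5% (overexpression) and 88.0% (control), and that of other control regions 81.3%. By length, 55.8% of the overexpression regions was shared. With regions up to 1000 bp apart merged, 69.1% and 31.3% recurred. Control regions on the 200 bp grid recurred in 19.4% and those with boundaries on different grids in 29.5%.

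No paired analysis was possible because the tables hold no value per replicate, and for the same reason leaving out each replicate was not run. Unknown depth limits every count given here.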
